A study of Mus musculus with 4 samples.

Results

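The genes described here encode the enzymes and transporters that carry glucose to lactate, the enzymes of the pentose phosphate pathway, and the hypoxia-inducible factor Hif1a with its regulators. They were chosen by function, as a list of 37 gene symbols out of 55536 annotated mouse genes: 3 glucose transporters, 16 glycolytic enzymes, 4 genes for making and exporting lactate, 4 regulatory kinases, 3 oxygen-sensing genes and 7 pentose phosphate enzymes. RNA came from bone marrow-derived macrophages, which are primary cells grown from the marrow of C57BL/6J mice, after 15 min with 100 ng/ml Lipid A, the part of bacterial lipopolysaccharide that activates the receptor TLR4. Ribosomal RNA was depleted from 1 µg of cytosolic RNA per library, and 4 biological replicates made up the only group. Sex and age were not collected, and all 4 replicates name the same donor record, and whether they were separate cultures or animals is not stated, so the p-values below speak only to the spread among these 4 libraries, part of which can be technical. No unstimulated or nuclear library was analysed here, so no value below is a response to Lipid A.

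Glycolysis splits glucose into pyruvate in the cytosol, and lactate dehydrogenase then regenerates the NAD+ that the pathway consumes. The pentose phosphate pathway branches off after the hexokinase step: its oxidative arm makes NADPH and its non-oxidative arm returns sugars to glycolysis or makes ribose for nucleotides. Macrophages activated through TLR4 are known for raising glycolytic flux and for building up the HIF protein, which oxygen-dependent prolyl hydroxylases mark for destruction through the VHL ubiquitin ligase. HIF binds DNA at hypoxia response elements, short sites around the core ACGTG or GCGTG, and many glycolytic genes are textbook HIF and MYC targets.

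Annotated genes took 30088678, 47961117, 40282297 and 45771235 expected counts in replicates 1 to 4. Every gene of the 37 had a mean of at least 1 TPM (a library's transcript share, corrected for length) and a mean of at least 10 counts, the lowest count in any library being 97. Rn7s1 and Rn7s2, the 7SL RNA genes, held 57.1 to 63.3% of all TPM, so TPM is used below to compare genes and TMM-scaled CPM (a library's count share, scaled between libraries) to compare libraries. All 10 macrophage markers reached a mean of 1 TPM, whereas none of the T cell, B cell, erythroid, dendritic or stromal markers did, and 3 of 7 neutrophil and granulocyte precursor markers (S100a8, S100a9 and Ngp) did. Replicate 3 held the most of the stromal markers, which summed to 0.407, 0.563, 11.3 and 0.187 CPM in replicates 1 to 4. The neutrophil and granulocyte precursor markers were also highest in it, summing to 10.4, 18.9, 31.1 and 12.8 CPM. The 5 nuclear RNAs looked at summed to 2093, 1938, 9978 and 6852 CPM, so replicates 3 and 4 of this cytosolic fraction held more of them. Replicate 1 stood apart: 2031 of 14041 tested genes (14.5%) were called higher in it than in the other 3 libraries and 1065 (7.58%) lower, by edgeR's quasi-likelihood test at an adjusted p under 0.05. In replicates 2, 3 and 4 the same test called 0 genes (0.0%), with 277, 135 and 104 genes at an unadjusted p under 0.05, and DESeq2 called 7, 5 and 15. Replicate 1 is among the other 3 libraries in those fits, so its distance enters their error and calls are harder to reach.

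Pyruvate kinase shows how a single gene can give different enzymes. Transcripts of Pkm (chromosome 9, 59656368 to 59679375, plus strand, mm10) carry either of a pair of mutually exclusive coding exons, which encode the constitutively active M1 enzyme or the allosterically regulated M2 enzyme of proliferating and activated cells. The exons are printed because the isoform share below rests on telling them apart; each has 167 bases and is exon 9 of its transcript, and capitals mark the 64 positions at which they differ, the other 103 being shared (61.7% identity). Both were read from the GENCODE transcripts, the M1 exon at chr9:59675029-59675195 and the M2 exon at chr9:59675568-59675734, plus strand.
Pkm M1 exon: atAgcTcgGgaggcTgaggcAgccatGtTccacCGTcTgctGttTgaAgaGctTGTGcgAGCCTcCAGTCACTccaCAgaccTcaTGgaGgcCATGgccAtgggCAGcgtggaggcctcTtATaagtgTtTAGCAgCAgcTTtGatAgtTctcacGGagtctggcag
Pkm M2 exon: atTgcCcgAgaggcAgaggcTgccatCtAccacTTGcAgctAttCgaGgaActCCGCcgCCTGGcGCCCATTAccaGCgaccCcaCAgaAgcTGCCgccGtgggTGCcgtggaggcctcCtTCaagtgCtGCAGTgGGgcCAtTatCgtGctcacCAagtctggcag

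Promoter windows of 250 bases, ending at the base before the transcription start, were taken from RefSeq (GRCm38.p6) for 36 of the 37 genes. Slc2a3 was not matched. The letters ACGTG, an HRE core, were found on either strand in 14 of 36 windows (38.9%) against 16.6% of all 32851 RefSeq windows of that length. GCGTG, the other HRE core, was in 22 (61.1%) against 28.2%, and 30 (83.3%) held at least 1 of the cores against 38.6% of all windows. The E-box CACGTG, which contains ACGTG on both strands, was in 3 windows (8.3%), those of Ldha, Slc16a1 and Hif1a, against 6.0%. The 2 sets are unlike: each member gave 1 window, the closest to the start of its leading transcript. The full set holds every window, with several for some genes, and was not limited to genes detected here. The Tkt window lies 8478 bases from the start of its leading transcript. Base composition was not matched between the members and the other windows, and a match of letters is not a bound site. The windows of Hk2, Pgk1, Ldha and Slc16a1 are printed because these genes were higher in replicate 1, described below, and their windows hold ACGTG and overlap no annotated exon of the gene; capitals mark ACGTG and GCGTG on either strand (CACGT and CACGC on the strand shown). They lie at chr6:82774455-82774704 on the minus strand, chrX:106186850-106187099, chr7:46845554-46845803 and chr3:104638414-104638663, the last 3 on the plus strand, and each is written 5′ to 3′ towards its gene. Among the other genes called higher in replicate 1, the windows of Pkm and Rpe held neither core. Those of Eno1, Pdk1 and Tkt held GCGTG but not ACGTG, and those of Slc2a1 and Egln1 held both cores and overlap an exon. Whether the cores bear on the levels in replicate 1 was not tested.
Hk2 promoter: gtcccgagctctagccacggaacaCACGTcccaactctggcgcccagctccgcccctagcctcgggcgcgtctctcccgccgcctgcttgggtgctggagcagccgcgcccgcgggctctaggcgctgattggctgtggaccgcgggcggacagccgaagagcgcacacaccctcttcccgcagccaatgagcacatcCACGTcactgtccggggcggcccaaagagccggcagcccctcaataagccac
Pgk1 promoter: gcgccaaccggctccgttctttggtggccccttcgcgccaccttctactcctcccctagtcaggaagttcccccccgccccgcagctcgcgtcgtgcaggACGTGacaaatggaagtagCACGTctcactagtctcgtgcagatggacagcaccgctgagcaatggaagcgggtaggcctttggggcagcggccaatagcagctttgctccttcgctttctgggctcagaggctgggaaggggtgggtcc
Ldha promoter: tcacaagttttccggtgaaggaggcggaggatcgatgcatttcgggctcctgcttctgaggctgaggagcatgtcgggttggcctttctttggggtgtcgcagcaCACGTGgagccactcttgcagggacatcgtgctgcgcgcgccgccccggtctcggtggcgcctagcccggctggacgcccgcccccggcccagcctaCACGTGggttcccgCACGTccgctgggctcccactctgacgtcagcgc
Slc16a1 promoter: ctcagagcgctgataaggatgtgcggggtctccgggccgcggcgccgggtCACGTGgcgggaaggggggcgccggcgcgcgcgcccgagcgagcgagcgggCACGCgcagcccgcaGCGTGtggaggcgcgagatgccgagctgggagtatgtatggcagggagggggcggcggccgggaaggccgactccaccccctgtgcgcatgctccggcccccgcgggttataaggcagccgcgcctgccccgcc

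Levels ranged widely between members. Gapdh, which oxidises glyceraldehyde phosphate, was the most abundant at 369 ± 107 TPM (SD, n = 4), and Slc2a3, a high-affinity glucose transporter, the least at 1.71 ± 0.600 TPM. After Gapdh came Aldoa (fructose bisphosphate aldolase, 195 ± 43.9 TPM), Pkm (176 ± 95.1 TPM), Ldha (lactate dehydrogenase A, 144 ± 61.1 TPM) and Pgam1 (phosphoglycerate mutase, 118 ± 26.3 TPM). Most neighbours in this order did not differ beyond their spread: 9 of 36 neighbouring pairs kept their order in all 4 libraries, Gapdh above Aldoa and Pkm above Ldha among them. Aldoa stood above Pkm in 3 libraries and Ldha above Pgam1 in 3.

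Along the route from glucose to lactate, the 3 listed glucose transporters together gave 8.28 ± 2.06 TPM and the 2 listed monocarboxylate transporters, Slc16a1 and Slc16a3, 7.005 ± 2.18 TPM. These sums leave out other family members, Slc16a6 and Slc16a7 among them. Slc16a7 (MCT2, which carries lactate and pyruvate) alone had 17.7 ± 6.60 TPM. Among enzyme steps phosphofructokinase, the committed and most regulated step of glycolysis, had the least RNA at 20.9, 14.9, 14.3 and 22.2 TPM in replicates 1 to 4, and it was below every other glycolytic step in each library. Hexokinase, which traps glucose in the cell by phosphorylation, had 97.4 ± 16.01 TPM, and Gpi1, which isomerises its product, 69.1 ± 17.0 TPM. Aldolase, which follows phosphofructokinase, reached 199.7 ± 45.8 TPM, Tpi1 (triose phosphate isomerase) 77.8 ± 17.4, Pgk1 (phosphoglycerate kinase) 92.9 ± 34.0 and enolase 94.4 ± 33.9.

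**Figure D1:**
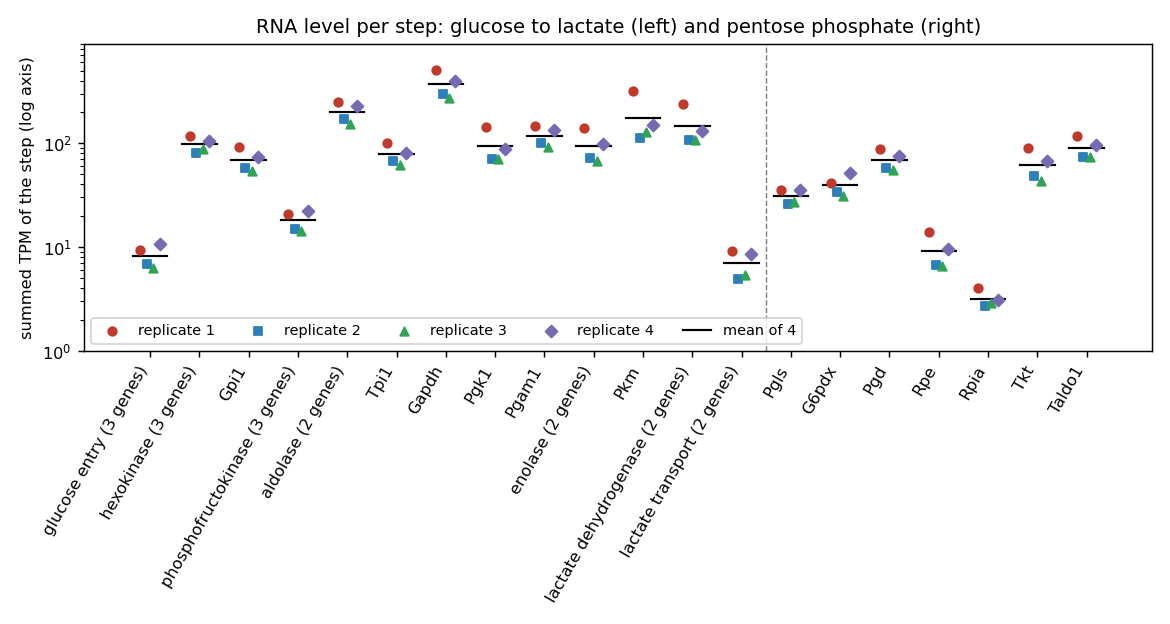
Summed TPM (log axis) of each step from glucose entry to lactate export, left of the dashed line, and of each pentose phosphate enzyme, right of it; points are the 4 libraries and black bars their mean. Phosphofructokinase (mean 18.1 TPM) is the lowest enzyme step of glycolysis, and Rpe and Rpia (9.13 and 3.17 TPM) the lowest of the pentose phosphate pathway.

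In the pentose phosphate pathway the oxidative arm starts with G6pdx, the NADPH-producing glucose-6-phosphate dehydrogenase, at 41.0, 34.1, 31.3 and 51.4 TPM. Pgls, the lactonase that follows, had 31.1 ± 5.34 TPM, and Pgd, the other NADPH-producing enzyme, 68.7 ± 15.4 TPM. Pgd exceeded G6pdx in all 4 libraries, with TPM ratios of 2.13, 1.68, 1.75 and 1.47. In the non-oxidative arm, Taldo1 (transaldolase) and Tkt (transketolase) were abundant at 89.6 ± 20.5 and 62.1 ± 21.2 TPM, whereas Rpe and Rpia, which interconvert the pentose phosphates, had 9.13 ± 3.40 and 3.17 ± 0.578 TPM. The leading Tkt transcript is annotated as a processed transcript without a coding sequence and held 75.1 ± 4.36% of Tkt's TPM. The leading transcript of each of the other 36 genes is protein-coding, but it did not always hold most of the gene's TPM. Its share was 39.0 ± 15.04% for Hk3 and 41.4 ± 7.22% for Pfkfb3. Gene TPM sums all transcripts, and whether the remaining ones are coding was not looked at.

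The median glycolytic enzyme was more abundant than the median pentose phosphate enzyme. On the log2(TPM + 1) scale the medians were 6.11 ± 0.27 for the 16 glycolytic and 5.31 ± 0.31 for the 7 pentose phosphate enzymes (SD, n = 4). Their difference was 1.03, 0.76, 0.86 and 0.52 in replicates 1 to 4, above 0 in 4 of 4 libraries (mean 0.79 ± 0.22). Summed TPM of the glycolytic enzymes was 4.73, 4.20, 4.18 and 4.06 times that of the pentose phosphate enzymes, so replicate 1 was the highest and replicates 2 to 4 lay close together.

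At most steps with several isozymes the leading gene was the same in every library. Hk3, the hexokinase of myeloid cells, held 68.1, 73.5, 75.4 and 71.8% of the summed hexokinase TPM, while Hk2, the inducible form, held 14.2 ± 2.503% and Hk1, the widely expressed form, 13.6 ± 0.904%. Hk2 and Hk1 could not be ordered: their TPM ratio was 1.27 in replicate 1 and 0.936, 1.00 and 0.977 in replicates 2 to 4. Among phosphofructokinases Pfkp (platelet form) held 57.1 ± 2.86%, Pfkl (liver form) 32.3 ± 2.03% and Pfkm (muscle form) 10.6 ± 0.969%, in that order in each library.

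Aldoa made up 97.5 ± 1.16% of aldolase TPM against Aldoc, the brain form; Eno1 made up 97.9 ± 1.11% of enolase against Eno2, the neuronal form; and Ldha made up 98.6 ± 0.255% of lactate dehydrogenase against Ldhb, the heart form. These minor isozymes were measured at 5.09 ± 2.95, 1.80 ± 0.915 and 1.91 ± 0.625 TPM. Pfkfb3, a kinase that makes the strongest allosteric activator of phosphofructokinase, held 57.8 ± 1.04% beside its paralog Pfkfb4, a share that varied little between libraries. Pdk1, a kinase that switches off pyruvate dehydrogenase and so keeps pyruvate out of mitochondria, held 66.9 ± 3.29% beside Pdk3.

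Among the listed transporters the order differed in replicate 1. Within the pair Slc16a1 and Slc16a3, the share of Slc16a3 (MCT4, the exporter of glycolytic cells) was 47.9, 70.8, 70.1 and 78.7%, and that of Slc16a1 (MCT1) was 52.1, 29.2, 29.9 and 21.3%. Replicate 1 was the only library with Slc16a1 above Slc16a3, and without it the mean Slc16a3 share was 73.2% in place of 66.9%. Neither was the most abundant gene of the Slc16 family. Slc16a7, which is not in the list of 37, had 14.2, 16.05, 13.1 and 27.4 TPM, above both in each library. The mean TPM of Slc16a6, also outside the list and given below, was higher than that of Slc16a7. Among the 3 glucose transporters, Slc2a1 (GLUT1, the basal transporter) held 51.2, 32.6, 34.0 and 27.1%, while Slc2a6 (GLUT6, a transporter of lysosomal membranes in macrophages) held 21.1, 48.3, 43.8 and 58.5%. By TPM Slc2a6 was the highest of the 3 in replicates 2 to 4 and the lowest in replicate 1. That order rests on the length correction: in CPM Slc2a1 was above Slc2a6 in replicate 2 (13.1 against 12.9) and replicate 3 (13.1 against 10.8) too, and the mean Slc2a6 share was 33.7%. Its TPM-based mean share was 42.9% with all libraries and 50.2% without replicate 1.

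For the 9 pairs of leading isozymes an exact two-sided sign-flip permutation over the 4 libraries has 16 patterns and cannot give a p below 0.125. In this exact test the 7 steps with the same leader in all libraries reached that value (adjusted p = 0.161 over the 9 pairs), Slc16a3 over Slc16a1 gave p = 0.25 (adjusted 0.281) and Slc2a6 over Slc2a1 p = 0.75 (adjusted 0.75). None passed 0.05, which this design does not allow.

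**Figure D2:**
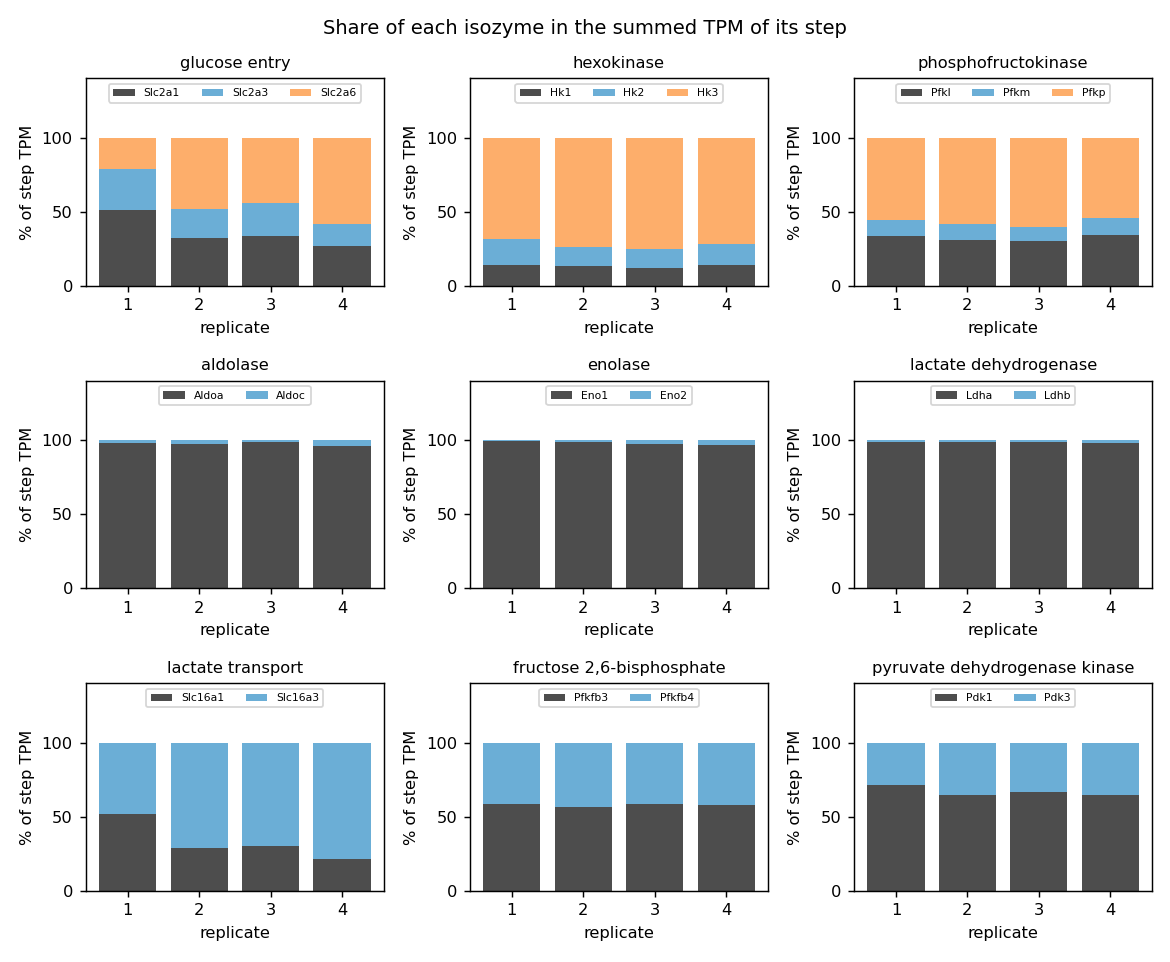
Stacked bars give each isozyme's percent of the summed TPM of its step in replicates 1 to 4, for 9 steps. Hk3, Pfkp, Aldoa, Eno1, Ldha, Pfkfb3 and Pdk1 lead in each library, whereas Slc2a1 (51.2%) and Slc16a1 (52.1%) are the highest of the transporters drawn only in replicate 1.

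Pkm RNA was mostly of the M2 form. Transcripts with the M2 exon made up 86.1, 88.6, 87.8 and 88.7% of M1 plus M2 TPM in replicates 1 to 4 (87.8 ± 1.22%). Replicate 1 had the lowest M2 share, and it held more of both forms: 271 TPM of M2 against 98.5 to 130 TPM elsewhere, and 43.8 TPM of M1 against 12.7 to 16.6 TPM. The other Pkm transcripts took 1.38 ± 0.77% of the gene's TPM.

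Between libraries, replicate 1 was the highest of the 4 for 25 of the 37 genes, where 41.4% of all tested genes had it highest, and the lowest for 6, where 33.4% of all tested genes had it lowest. By the edgeR test 11 genes were higher in replicate 1 than in the other 3 libraries (29.7% of the 37; 14.5% of all tested genes) and 1 was lower (2.7%; 7.58% of all tested genes). The median log2 fold of the 37 was 0.23, beside -0.01 over all tested genes. No member was called in replicates 2, 3 or 4, where 0, 1 and 0 of the 37 had an unadjusted p under 0.05 and DESeq2 called 0 as well; Aldoc in replicate 3 was the 1 gene (log2 fold -1.23, edgeR adjusted p = 1.0). With replicate 1 left out, 0 of the 37 were called in any of these 3 libraries. The 4 comparisons share their libraries. For replicates 2 to 4, replicate 1 is among the other 3 unless left out, and its distance enters the error. The SE of Pkm, for example, was 0.154 for replicate 1 and 0.541, 0.572 and 0.505 for replicates 2 to 4. A call was therefore harder to reach in those 3 comparisons. In bulk RNA a change in the cells present and a change in RNA per cell cannot be told apart.

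Other values moved with replicate 1. The 21 proliferation genes had a median log2 fold of 1.59 in it, beside -0.005 over all tested genes. Their summed level was 1624 CPM against 501, 492 and 510 CPM. Myc, a transcription factor with many glycolytic targets, stood at 56.4, 6.74, 9.48 and 7.47 CPM (log2 fold 2.84 ± 0.18 SE, adjusted p = 0.00279 by edgeR). The 10 macrophage markers did not move one way, and their median log2 fold in replicate 1 was -0.161, beside -0.005 over all tested genes. C1qa (189 against 83.7 to 104 CPM) and Itgam (394 against 187 to 207 CPM) were higher in replicate 1. Mertk (135 against 219 to 268 CPM) was lower. These genes were picked after their values were seen. Summed, the markers were at 13680 CPM in replicate 1 and 15380 to 16520 CPM elsewhere, of which Lyz2 took 8240 CPM in replicate 1. The part of these values in the result was not tested.

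Glucose entry divided. Slc2a1 stood at 20.9, 13.1, 13.1 and 10.9 CPM, 1.69-fold higher in replicate 1 (log2 fold 0.76 ± 0.14 SE, adjusted p = 0.0214). Slc2a6 went the other way at 5.63, 12.9, 10.8 and 17.2 CPM (log2 fold -1.28 ± 0.30, adjusted p = 0.039), and it was the only member called lower. Replicate 1 lay outside the range of the other 3 for both genes. Slc2a3 was also highest in replicate 1, at 11.1 CPM against 8.82, 7.81 and 7.05 CPM, and did not pass (0.50 ± 0.16, adjusted p = 0.0929). With the counts of the target tables the Slc2a6 fold was the same size (-1.28) but did not pass (adjusted p = 0.0846).

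Among the 16 glycolytic enzymes 4 were called higher (25.0%, beside 14.5% of all tested genes) and 0 lower (beside 7.58%), with a median log2 fold of 0.21. Pkm was at 1017, 491, 554 and 441 CPM, 2.05-fold higher in replicate 1 (log2 fold 1.04 ± 0.15, adjusted p = 0.0124). Hk2 was at 117, 73.1, 83.1 and 71.0 CPM (log2 fold 0.63 ± 0.11, adjusted p = 0.0189). Eno1 was at 378, 259, 241 and 232 CPM (log2 fold 0.63 ± 0.11, adjusted p = 0.0178). In each of these genes the 3 other libraries lay close together below replicate 1. Pgk1 was at 341, 232, 233 and 192 CPM (log2 fold 0.64 ± 0.14, adjusted p = 0.0333); without replicate 3 its fold was 0.68 and did not pass (adjusted p = 0.0531).

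The rest of the glycolytic enzymes did not pass the test in replicate 1. Gapdh was at 868, 680.1, 604 and 635 CPM (log2 fold 0.44 ± 0.13, adjusted p = 0.0658) and Gpi1 at 256, 208, 179.6 and 194 CPM (0.40 ± 0.12, adjusted p = 0.0649), both highest in replicate 1. Hk3 was at 327, 329.6, 363 and 281 CPM (0.01 ± 0.17) and Pfkp at 54.2, 54.3, 53.6 and 51.4 CPM (0.03 ± 0.08), so the leading hexokinase and phosphofructokinase had replicate 1 inside the range of the others. Pfkp had the smallest spread of the 37 genes, its highest library being 1.055-fold above its lowest. Hk1, Pfkl, Pfkm, Aldoa, Tpi1 and Pgam1 had log2 folds of 0.09 to 0.26, while Aldoc (-0.10 ± 0.57) and Eno2 (-0.80 ± 0.34, adjusted p = 0.165) were below 0 with wide errors.

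The 4 lactate genes had a median log2 fold of 0.581 in replicate 1, beside -0.005 over all tested genes, and included the member with the largest fold. Slc16a1 stood at 30.1, 12.2, 13.8 and 10.5 CPM, 2.47-fold higher in replicate 1 (log2 fold 1.31 ± 0.16, adjusted p = 0.00773). Ldha stood at 475, 292, 298 and 241 CPM (log2 fold 0.78 ± 0.15, adjusted p = 0.0236). Slc16a3 was lowest in replicate 1 at 13.5 CPM against 14.4, 15.4 and 17.7 CPM and did not pass (-0.24 ± 0.15, adjusted p = 0.313), nor did Ldhb at 3.44, 2.10, 3.12 and 2.70 CPM (0.38 ± 0.32, adjusted p = 0.433).

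**Figure D3:**
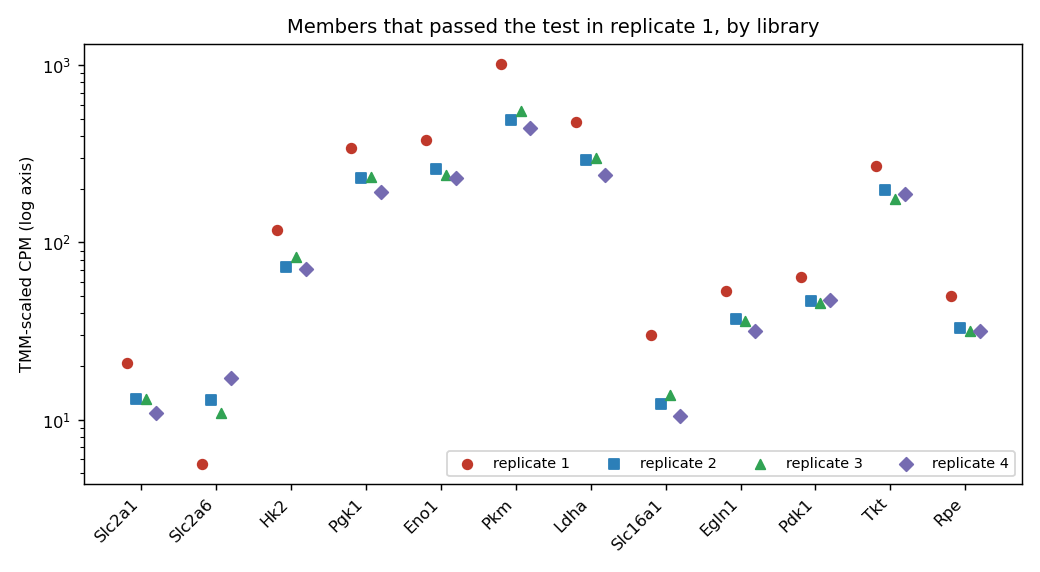
TMM-scaled CPM (log axis) of the 12 genes called in replicate 1, with each library as its own symbol. Replicate 1 is above the other 3 libraries for 11 genes (Slc16a1 at 30.1 CPM against 10.5 to 13.8) and below them for Slc2a6 (5.63 CPM against 10.8 to 17.2).

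Of the regulatory kinases only Pdk1 passed, at 63.9, 46.9, 45.4 and 47.2 CPM (log2 fold 0.46 ± 0.08, adjusted p = 0.0189). Its paralog Pdk3 was at 10.9, 10.3, 8.92 and 10.5 CPM (0.14 ± 0.14). The median log2 fold of the 4 kinases in replicate 1 was 0.026, beside -0.005 over all tested genes. Pfkfb3 and Pfkfb4 had log2 folds of -0.08 ± 0.08 and -0.23 ± 0.10, neither passing, and Pfkfb3 kept within 59.2 to 64.5 CPM.

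The 3 oxygen-sensing genes had a median log2 fold of 0.225 in replicate 1, beside -0.005 over all tested genes. Egln1, the prolyl hydroxylase PHD2 that marks HIF for destruction and is itself a HIF target, stood at 53.2, 37.2, 36.1 and 31.6 CPM (log2 fold 0.61 ± 0.12, adjusted p = 0.0254). Hif1a (chromosome 12, 73901375 to 73947530, plus strand, mm10) stood at 128, 111, 108 and 110.4 CPM and did not pass (0.23 ± 0.08, adjusted p = 0.101). Vhl was at 17.3, 18.6, 16.9 and 19.8 CPM (-0.09 ± 0.13), so replicate 1 was inside its range.

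In the pentose phosphate pathway 2 of 7 enzymes were called higher (28.6%, beside 14.5% of all tested genes) and 0 lower, with a median log2 fold of 0.24. Both belong to the non-oxidative arm. Rpe was at 49.99, 33.1, 31.6 and 31.6 CPM (log2 fold 0.64 ± 0.09, adjusted p = 0.0101). Tkt was at 268, 197, 176 and 188 CPM (log2 fold 0.52 ± 0.10, adjusted p = 0.0265), and it did not pass without replicate 3 (0.47, adjusted p = 0.0542) or without replicate 4 (0.45, adjusted p = 0.0674). The enzymes of the oxidative arm did not pass: G6pdx had 148, 166, 153 and 168 CPM (-0.13 ± 0.10, adjusted p = 0.391), Pgls a log2 fold of -0.04 ± 0.11 and Pgd 0.24 ± 0.11. Taldo1 (0.24 ± 0.10) and Rpia (0.20 ± 0.21) did not pass either.

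**Figure D4:**
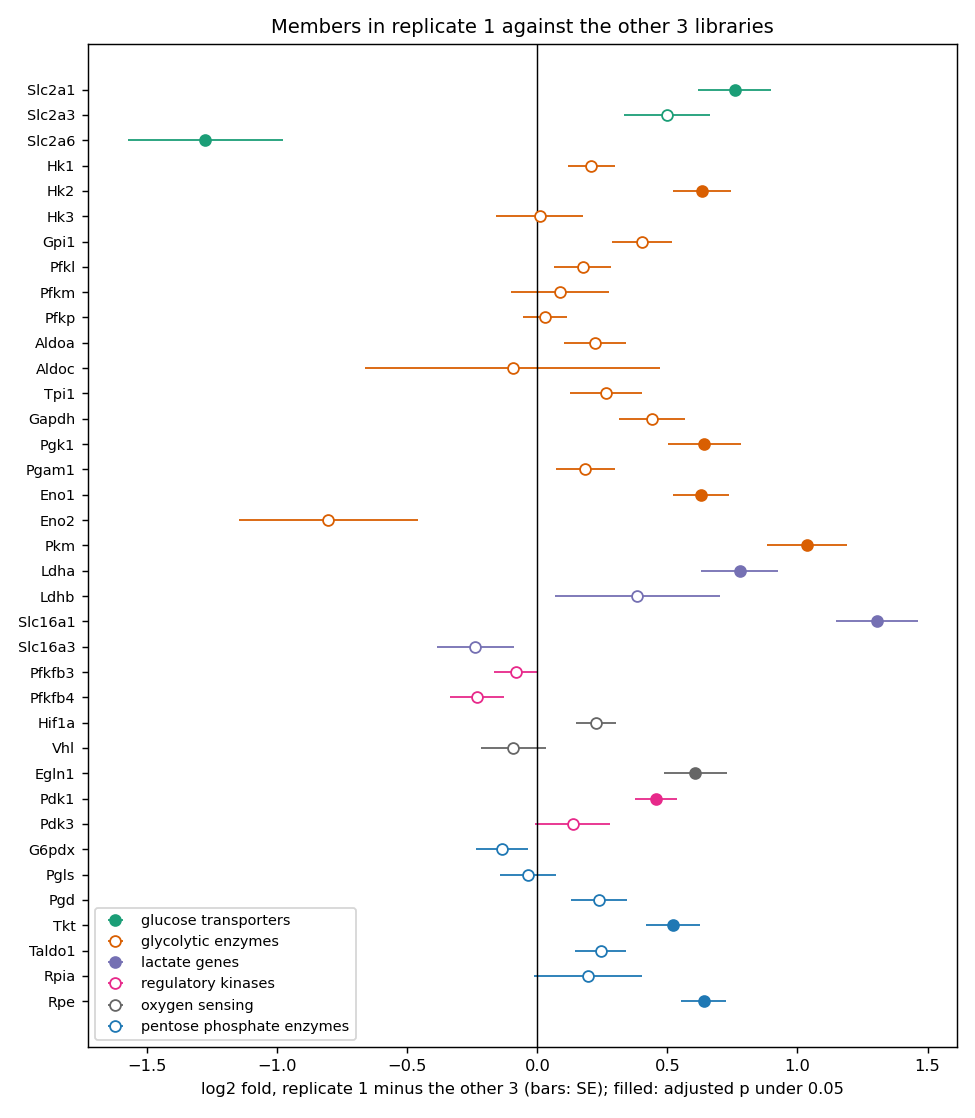
Log2 fold of replicate 1 minus the other 3 libraries for the 37 genes, coloured by role, with SE bars; filled points have an adjusted p under 0.05 in edgeR's quasi-likelihood test. The points run from Slc2a6 (-1.28) to Slc16a1 (1.31), with Hk3 and Pfkp at 0.01 and 0.03.

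The median SD of log2 CPM over the 37 genes was 0.22 with all libraries and 0.12 without replicate 1, close to the 0.26 and 0.13 over all tested genes. Aldoc varied most without replicate 1, at 17.3, 8.10 and 24.1 CPM (SD 0.81), followed by Eno2 (0.38) and Slc2a6 (0.34). The glycolytic enzymes had a median SD of 0.20 and the pentose phosphate enzymes 0.14. Hif1a, Pdk1 and Rpe varied least in replicates 2 to 4, with SDs of 0.02, 0.03 and 0.04. Replicate 4 was the lowest library for 20 of the 37 genes, and the share of all tested genes with it lowest was not computed. The median log2 fold of the 37 in replicate 4 was -0.167, beside -0.013 over all tested genes.

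Related pathway genes outside the 37 were read from the same fit, in which 14.5% of all tested genes were higher in replicate 1 and 7.58% lower. Of 21 other glycolytic and gluconeogenic genes tested, 3 were higher (14.3%) and 2 lower (9.52%), shares near those of all genes (median log2 fold 0.15). Tigar, a phosphatase that diverts sugar to the pentose phosphate pathway (0.92), Adpgk, an ADP-dependent glucokinase (0.83), and Pgam5, a mitochondrial phosphatase (0.70), were higher, and Pck2, the mitochondrial PEP carboxykinase (-0.82), and Slc16a7, the lactate and pyruvate transporter MCT2 (-0.52), were lower. Bsg, the chaperone of the lactate transporters, was the most abundant at 84.4 ± 12.3 TPM, followed by Slc16a6 at 20.8 ± 5.16 TPM. Of 8 other pentose phosphate genes 2 were higher (25.0%) and 0 lower (median -0.01): Prps1, a PRPP synthetase that feeds nucleotide synthesis, stood at 12.4, 4.57, 4.32 and 4.56 CPM (log2 fold 1.46 ± 0.14, adjusted p = 0.00488), and Dera had 0.46. Prps2, the more abundant PRPP synthetase at 17.4 ± 3.82 TPM, did not pass (-0.12 ± 0.09).

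Of 13 genes of pyruvate entry to mitochondria, 3 were higher (23.1%) and 3 lower (23.1%) in replicate 1 (median 0.03), beside 14.5% and 7.58% of all tested genes. The pyruvate dehydrogenase subunits Pdha1 and Dlat and the citrate synthase Cs were higher by 0.49, 0.46 and 0.43, and the kinase Pdk2 and the pyruvate carrier subunit Mpc1 had log2 folds of -0.74 and -0.62. Mpc1 (73.8 ± 25.1 TPM) and Cs (32.8 ± 9.68 TPM) were the most abundant of this list.

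Of 11 tested genes of the HIF pathway 3 were higher (27.3%, beside 14.5% of all tested genes) and 1 lower (9.09%, beside 7.58%), with a median of -0.07. Epas1, which encodes HIF-2 alpha, was at 30.1, 14.0, 18.2 and 10.7 CPM (log2 fold 1.08 ± 0.28, adjusted p = 0.049), the VHL ligase subunits Eloc and Cul2 had 0.60 and 0.52, and the coactivator Ep300 had -0.42. Elob (90.9 ± 24.3 TPM) and Rbx1 (38.6 ± 9.11 TPM) were the most abundant. Of 23 classical hypoxia-induced genes 5 were higher (21.7%) and 3 lower (13.0%), with a median of 0.06. Vegfa, the angiogenic growth factor and textbook HIF target, had the largest fold among the called genes of that list. It was at 32.1, 90.4, 124 and 105 CPM, lowest in replicate 1 (log2 fold -1.73 ± 0.20). Whether HIF bears on these levels was not tested. Higd1a (0.91), Car9 (0.83), P4ha1 (0.64) and Sdc4 (0.56) were higher. Tfrc, the transferrin receptor (216 ± 35.7 TPM), and Hmox1, heme oxygenase (131 ± 44.6 TPM), were the most abundant of this list and were not called.

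Several of these enzymes have pseudogenes or near-identical copies that share reads. Of 13 named copies 8 had no count in any library. The retrogene Eno1b had 1.36% of the counts of Eno1 and Pgam1-ps2 0.706% of those of Pgam1, so the values of Eno1 and Pgam1 are uncertain by the reads the counting could split. Only Eno1b and copies named as a member symbol followed by -ps or -rs were looked at. Copies under other symbols, of these or the other members, were not covered.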

How the data were processed

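Libraries were quantified by the authors on mm10 with the GENCODE M21 annotation, per the file headers and labels, and 3 tables per library were used: a gene and a transcript table made from transcriptome alignments, and a target table made directly from reads. The deposited values are expected counts (estimated counts that need not be whole) and TPM; the quantifier, like the strand setting of the counting, was not given in the sources used here. Entries that name no annotated gene (0.0267 to 0.407% of counts) were left out.

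Expected counts were rounded and tested with edgeR 4.0.16 (R 4.3.3; quasi-likelihood test, TMM scaling, mean count of at least 10, Benjamini-Hochberg adjustment over all 14041 genes tested), each library against the other 3; the library on its own is assumed to vary like the others. DESeq2 1.42.0 was an alternative, and the fits were tested on simulated data. Differences between libraries are on the log2 scale of this fit. TMM factors were 1.06, 0.962, 0.932 and 1.05. Isozyme shares and ratios used TPM as deposited, and branch levels log2 of TPM with a pseudocount of 1; motifs were searched in RefSeq promoter windows. Aldoa has 2 gene entries, of which the one with nearly all counts was used. Where a library gives 0 counts, 3 counts correspond to 0.0626 to 0.0997 CPM, which covers counting error only.

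All 37 genes are named; of each other pathway list, up to 5 called genes with the largest absolute log2 fold and the 2 with the highest mean TPM. The genes, lists and comparisons were chosen with earlier results of these data known. Other settings tried were DESeq2's size factors and test, no filter on low counts, the target tables, counts or CPM in place of TPM, another pseudocount, TPM without 7SL, added copies, and leaving out each replicate.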

Additional observations from a re-analysis of the deposited data

Results flagged for a closer look

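Of 50 values tested for a library far from the other 3, 3 were beyond the 95% limit of Dixon's test, all with replicate 1 the highest. The values tested were the 37 genes' log2 CPM, the isozyme shares, the branch levels and the M2 share. The 3 flagged were Hif1a at 128.3 CPM, Pdk1 at 63.9 CPM and Rpe at 49.99 CPM. On the log2 scale their gap to the next library was 0.842, 0.889 and 0.9 of the group's whole range. Chance flags about 1 in 20 groups of this size.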

How the results depend on the processing

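Under DESeq2's size factors, its test, no count filter and the target tables, and without each other replicate, 9 to 13 of the 37 genes were called higher in replicate 1 and 1 lower, except with the target tables, where 0 were lower. In replicates 2 to 4 the count of called genes of the 37 stayed at 0 under each of these. No recomputed fold or difference changed sign. With CPM in place of TPM, which does not correct for length, the shares were 66.0% for Hk3, 96.2% for Aldoa, 99.1% for Ldha, 50.2% for Slc16a3, 33.7% for Slc2a6, 66.8% for Pfkfb3 and 83.2% for Pdk1; the target tables gave 60.3% for Pfkfb3 and 73.9% for Pdk1. Median log2 levels of the glycolytic enzymes were 7.43 after TPM was rescaled without 7SL, 4.67 in the target tables and 7.60 with CPM, and those of the pentose phosphate enzymes 6.62, 3.90 and 7.15; their difference was 0.45 with CPM and 0.71 to 0.89 under the other settings. The M2 share was 89.7% from counts. The cause of these shifts was not tested, beyond the missing length correction. Without each replicate in turn Pgk1 and Tkt were the called genes that did not pass, as given beside their values. No paired analysis was possible because the samples form 1 group. Each member had at least 97 counts in every library. Replicate 1 had the fewest counts in all, and the effect of depth on the folds was not tested.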
